A study of Mus musculus with 14 samples.

Results

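The 10 genes described here, Gclm, Gclc, Gss, Slc7a11, Gsr, Nqo1, Txnrd1, Hmox1, Prdx2 and Cat, serve glutathione synthesis, thiol recycling and peroxide removal, and several are textbook targets of the transcription factor NRF2. They were picked by symbol from a raw count table of 52636 genes, and all 10 passed the filter on low counts that kept 11994 genes for testing. The RNA came from mice transplanted with I1DN leukemic cells, a label that the sources used here do not spell out, and was read by QuantSeq, which counts each transcript near its 3′ end. AG120 (AG-120, ivosidenib) blocks mutant IDH1, the altered form of isocitrate dehydrogenase that makes 2-hydroxyglutarate and consumes NADPH. Leukemic progenitors were sorted as cKit+ and CD11b- cells in 5 groups: relapse in mice that had completed the 28 days of AG120 (4 libraries), AG120 for 5 days (3 libraries), AG120 for 14 days (2 libraries), vehicle for 5 days (3 libraries) and vehicle for 14 days (2 libraries). All groups carry I1DN cells, so vehicle is an untreated leukemia and not normal marrow, and the sources used here give neither the age, sex or strain of the mice nor whether AG120 was still given at relapse. The labels describe cells isolated mouse by mouse, so 1 library stands for 1 mouse.

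Glutathione is made in a pair of steps. Glutamate-cysteine ligase, a catalytic subunit (Gclc) with a modifier subunit (Gclm), joins glutamate to cysteine, and glutathione synthetase (Gss) adds glycine. Cysteine arrives as cystine through the transporter Slc7a11, and oxidised glutathione is returned to its reduced form by glutathione reductase (Gsr) with NADPH. NRF2 (gene Nfe2l2) is held low by KEAP1, which marks it for degradation. When stabilised it pairs with small MAF proteins at antioxidant response elements, sites that the repressor BACH1 can also occupy. Developing red cells depend on this defence, and peroxiredoxin 2 is among the most abundant proteins of the mature red cell.

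The windows from 250 bases before to 50 bases after the start of each gene were searched for 3 short motifs, because an element there is where NRF2 or BACH1 could bind, and 3 windows are printed to show a match in a gene that changed, a match in a gene that did not, and a changed gene with no match. RefSeq (GRCm38.p6) held windows for 7 of the 10 genes, 9 windows in all, and Gclc, Gsr and Hmox1 had none in the table. The antioxidant response element core TGACNNNGC, read on both strands, was found in the Gclm window and in 1 of the Txnrd1 windows, and 12.4% of all 32851 windows hold it. Capitals mark the match, which lies on the opposite strand in both cases and begins 134 bases before the start in Gclm and 92 bases before it in Txnrd1.
Gclm, chr3:122245307-122245606, plus strand: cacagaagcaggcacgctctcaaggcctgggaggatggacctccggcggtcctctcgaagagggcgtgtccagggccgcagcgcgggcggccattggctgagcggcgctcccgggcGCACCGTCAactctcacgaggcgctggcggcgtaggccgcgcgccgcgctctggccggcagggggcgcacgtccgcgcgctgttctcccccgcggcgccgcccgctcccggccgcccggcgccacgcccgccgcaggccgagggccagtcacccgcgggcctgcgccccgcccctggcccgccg
Txnrd1, chr10:82858956-82859255, plus strand: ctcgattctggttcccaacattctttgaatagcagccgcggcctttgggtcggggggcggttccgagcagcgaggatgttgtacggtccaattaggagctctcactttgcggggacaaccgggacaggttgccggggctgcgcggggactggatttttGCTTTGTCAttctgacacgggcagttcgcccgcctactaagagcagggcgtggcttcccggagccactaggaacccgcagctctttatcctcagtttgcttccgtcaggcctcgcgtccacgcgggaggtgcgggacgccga
Nqo1, chr8:107403156-107403455, minus strand: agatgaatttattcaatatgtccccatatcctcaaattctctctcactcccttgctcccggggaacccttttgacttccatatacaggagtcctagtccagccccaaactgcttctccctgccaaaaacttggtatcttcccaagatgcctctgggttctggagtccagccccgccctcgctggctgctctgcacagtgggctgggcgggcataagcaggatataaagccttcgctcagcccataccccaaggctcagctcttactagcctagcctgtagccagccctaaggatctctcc
The windows of Gss, Slc7a11, Nqo1, Prdx2 and Cat held no match to that core. None of the 9 windows held the CNC-MAF core TGANTCAGC (1.19% of all windows), whose matches with C at the open base also match the first motif, or the GATA motif AGATAA (11.2% of all windows). A match is a string of letters and not a shown binding site, and no match says only that these letters are absent from these bases.

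Libraries held 4995738 to 8691708 counts, of which 50.9% to 74.8% fell on 5 ribosomal RNA gene models, so 1259982 to 3358874 counts described other genes, and the shallowest library was replicate 1 of AG120 day 14. Levels below are CPM, counts scaled to a common library size after TMM normalisation, and differences are log2 fold changes ± SE from edgeR's quasi-likelihood test, with p-values adjusted by the Benjamini-Hochberg method across the 11994 genes, called at an adjusted p below 0.05. Relapse libraries 1 and 4 resembled each other (Pearson r of log2 CPM 0.972), as did 2 and 3 (0.957), while pairs across reached 0.920 to 0.935. Kit, the sorted receptor, averaged 11.6 CPM in AG120 day 14 against 35.9 CPM in vehicle day 14, a difference of -1.62 ± 0.49 (edgeR adjusted p = 0.022). Itgam, the gene of CD11b, was above 0 in all libraries, with log2 differences of -2.02 ± 0.53 for AG120 against vehicle at day 5 (edgeR adjusted p = 0.0103), -1.19 ± 0.61 at day 14 (edgeR adjusted p = 0.154) and 2.64 ± 0.40 for relapse against AG120 (edgeR adjusted p = 0.00018). In a bulk sample, fewer cells of a type and less RNA per cell cannot be told apart.

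At day 5 of AG120, the glutathione synthesis genes Gclm, Gclc and Gss, the cystine transporter Slc7a11, the NRF2 target Nqo1 and the peroxidase Prdx2 were higher than in vehicle, by 1.43-fold to 4.34-fold. Gclm had the largest fold of the 10 at both times, and Gclm and Prdx2 passed in every alternative at both. These 6 of 10 genes passed in the upward direction, where 20.1% of all genes tested did so, and none passed in the downward direction, where 19.3% did. With 1 library left out at a time, 4 to 5 of the 10 genes passed at day 5. At day 14, Gclm, Gclc, Gss and Prdx2 passed, 4 of 10 against 16.8% of all genes tested, and none fell, against 17.9% (34.7% passed in either direction). The median log2 difference of the 10 genes was 0.56 at day 5 and 0.89 at day 14, beside medians of -0.0009 and -0.0062 over all genes tested. The groups did not overlap, with AG120 above, for 7 of the genes at day 5 and 6 at day 14, where 30.1% and 34.2% of all genes tested had such ranges. None of the 10 lay below without overlap at day 5 (29.8% of genes tested). Gsr alone lay below vehicle without overlap at day 14, a pattern of 36.3% of genes tested.

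**Figure D1:**
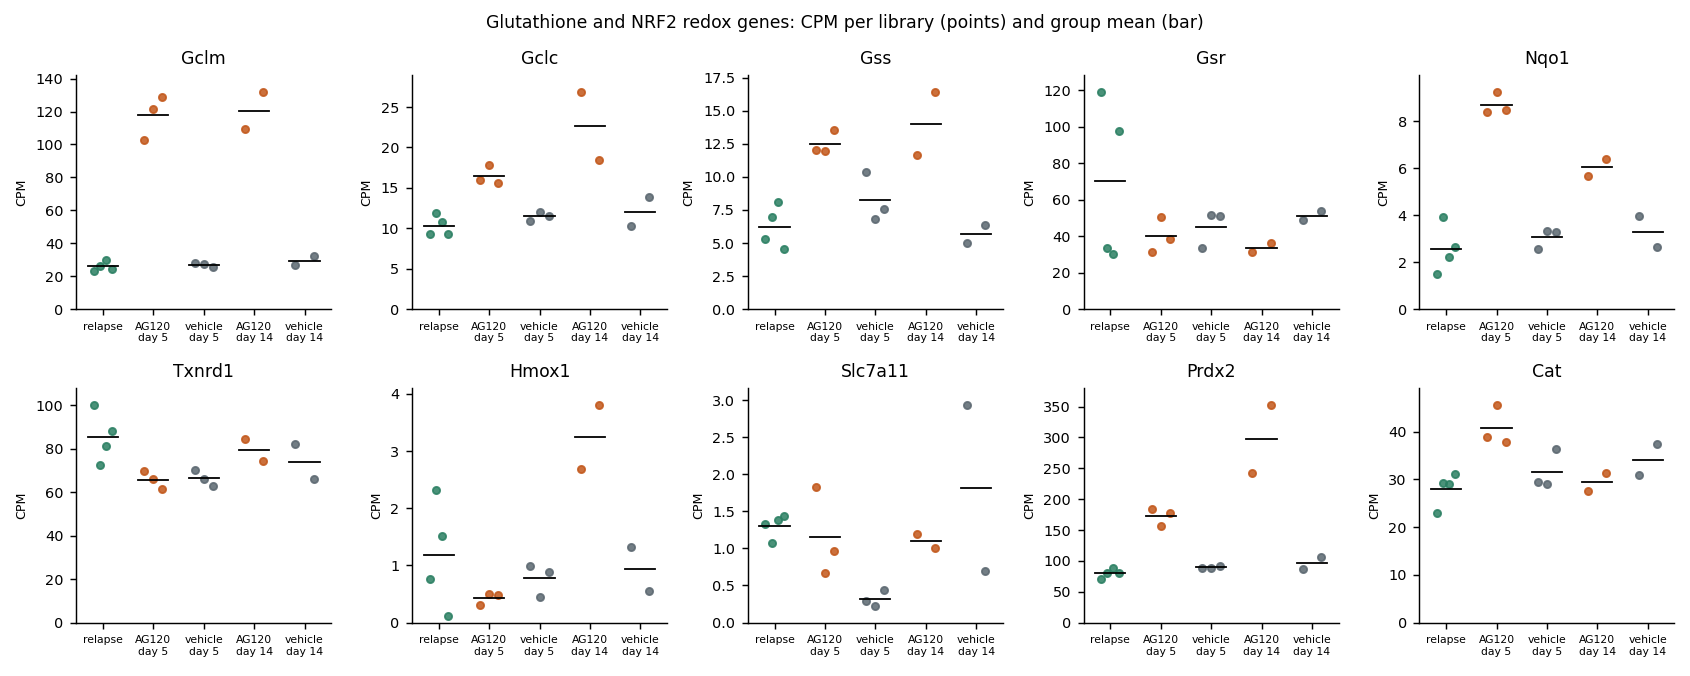
Level of each of the 10 genes in CPM (vertical axis, from 0) in the 14 libraries, by group along the horizontal axis, with points for libraries and bars for group means. Gclm and Prdx2 are separated from vehicle and relapse in all 5 AG120 libraries, while Txnrd1 is level across treatment and Gsr splits within relapse.

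**Figure D2:**
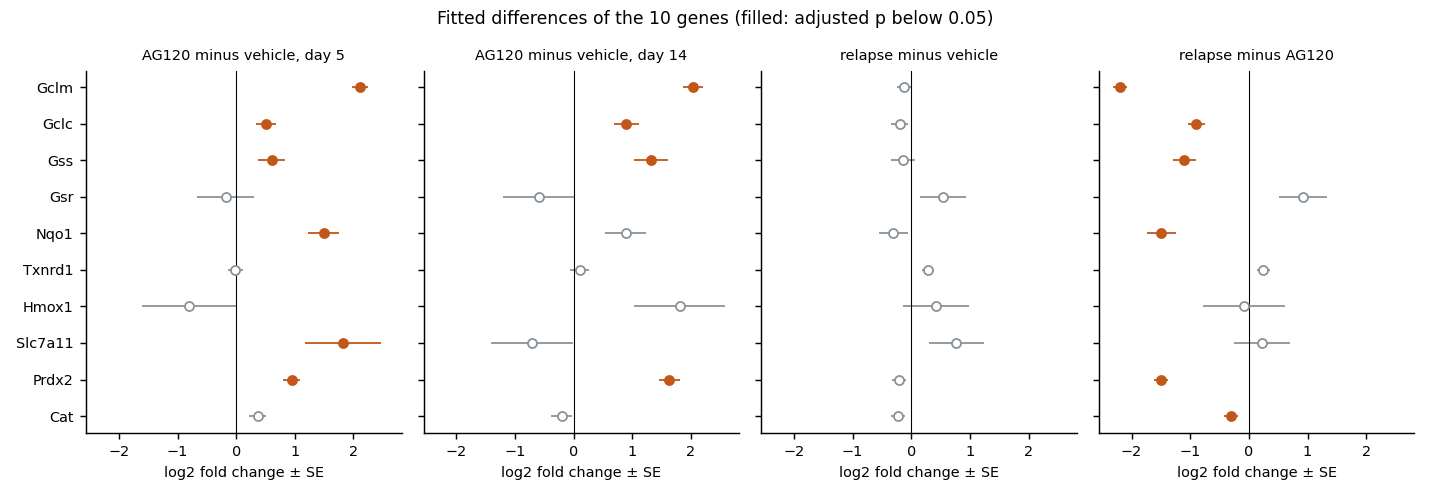
Fitted log2 fold change (horizontal axis) of the 10 genes (vertical axis) in 4 comparisons, with bars of 1 SE and filled points where the edgeR adjusted p was below 0.05. The first 3 rows, the synthesis genes, lie right of 0 under AG120 at both times and left of 0 in relapse against AG120.

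Gclm (ENSMUSG00000028124, chromosome 3, 122245557 to 122270732, plus strand, GRCm38), the modifier subunit of glutamate-cysteine ligase, had 102.9, 121.3 and 129.0 CPM in AG120 day 5, against 27.9, 27.6 and 25.7 CPM in vehicle day 5. At day 14 it had 109 and 132 CPM in AG120 and 27.0 and 32.1 CPM in vehicle. All 5 AG120 libraries lay far above all 5 vehicle libraries, with no overlap at either time. The log2 difference was 2.12 ± 0.14 at day 5 (edgeR adjusted p = 8e-09), or 4.34-fold, and 2.03 ± 0.17 at day 14 (edgeR adjusted p = 1.4e-07), or 4.09-fold. It passed in all 16 alternatives at day 5 and all 14 at day 14. In order of mean level, AG120 day 14 (120.6 CPM) and AG120 day 5 (118 CPM) overlapped, and vehicle day 14 (29.5 CPM), vehicle day 5 (27.1 CPM) and relapse (25.9 CPM) overlapped far below them.

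Gclc (ENSMUSG00000032350, chromosome 9, 77754535 to 77794485, plus strand), the catalytic subunit of the same enzyme, moved less. It had 16.0, 17.8 and 15.7 CPM in AG120 day 5, against 10.96, 12.05 and 11.55 CPM in vehicle day 5. By day 14 the levels were 26.9 and 18.4 CPM in AG120 and 10.3 and 13.8 CPM in vehicle. The groups did not overlap at either time, and the shallow AG120 library, replicate 1, was the highest of all. On the log2 scale the difference was 0.51 ± 0.17 at day 5 (edgeR adjusted p = 0.0237) and 0.89 ± 0.21 at day 14 (edgeR adjusted p = 0.0038). The day 5 call held in 11 of 16 alternatives. It was lost with scaling by counts outside ribosomal RNA (log2 0.42), with no filter on low counts (0.48) and without AG120 replicate 2 (0.46) or vehicle replicate 1 (0.48) or 3 (0.51), and over the 16 the edgeR, DESeq2 or limma adjusted p ran between 0.0035 and 0.0848. At day 14 it was lost without AG120 replicate 1 (0.61) or vehicle replicate 1 (0.69), with adjusted p between 0.0026 and 0.0733 over 14 alternatives.

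Gss (ENSMUSG00000027610, chromosome 2, 155563181 to 155592810, minus strand), which completes glutathione, had 12.04, 11.93 and 13.57 CPM in AG120 day 5, against 10.4, 6.85 and 7.59 CPM in vehicle day 5. After 14 days the levels were 11.6 and 16.4 CPM in AG120 and 4.98 and 6.36 CPM in vehicle. AG120 lay above vehicle without overlap at both times, narrowly at day 5, where vehicle replicate 1 came close. AG120 minus vehicle was on the log2 scale 0.60 ± 0.22 at day 5 (edgeR adjusted p = 0.0413) and 1.32 ± 0.29 at day 14 (edgeR adjusted p = 0.0024). The day 5 call held in 5 of 16 alternatives (adjusted p between 0.0032 and 0.161 from edgeR, DESeq2 or limma). It was lost with upper quartile scaling, scaling by counts outside ribosomal RNA, ribosomal RNA models left out, no filter, the stricter filter and DESeq2 (log2 0.51 to 0.58). It was also lost without any 1 of the 3 AG120 libraries or without vehicle replicate 2 or 3, at log2 0.48 to 0.64. The day 14 call was lost without AG120 replicate 2 (log2 1.03), with adjusted p between 0.00038 and 0.0565 over 14 alternatives. Gss overlaps Acss2 on the opposite strand by 395 exonic bases, none of them within 500 bases of its 3′ end.

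The subunits of glutamate-cysteine ligase were also set against each other within each library, a ratio of counts that no scaling can change and that was chosen after the levels were seen. There were 6.43, 6.81 and 8.24 Gclm counts per Gclc count in AG120 day 5, against 2.55, 2.29 and 2.23 in vehicle day 5. At day 14 the ratio was 4.07 and 7.16 in AG120 and 2.63 and 2.32 in vehicle. Every AG120 library lay above every vehicle library, with replicate 1 of day 14 the nearest to them. In relapse the ratio was 2.51, 2.21, 2.78 and 2.60, within or next to the vehicle range. Against Txnrd1, whose level was flat under AG120, Gclm had 1.474 to 2.099 counts per count in AG120 day 5 and 0.397 to 0.417 in vehicle day 5. No test was made on these ratios, and a ratio of 3′ counts is not a ratio of proteins.

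**Figure D3:**
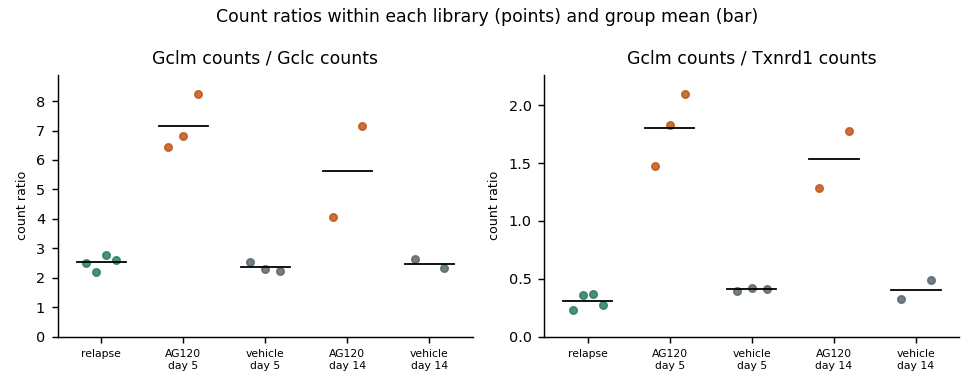
Gclm counts divided by Gclc counts (left) and by Txnrd1 counts (right) in each library, on vertical axes from 0, with points for libraries and bars for group means. The AG120 libraries sit above the vehicle and relapse libraries in both panels, between 4.07 and 8.24 on the left.

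Slc7a11 (ENSMUSG00000027737, chromosome 3, 49892526 to 50443614, minus strand), the cystine importer, was scarce, with 2 to 20 counts per library. It had 1.83, 0.67 and 0.96 CPM in AG120 day 5, against 0.28, 0.22 and 0.44 CPM in vehicle day 5, with no overlap. The day 14 levels were 1.19 and 1.00 CPM in AG120 and 2.93 and 0.69 CPM in vehicle, so that the vehicle libraries lay on both sides of AG120. The log2 difference was 1.81 ± 0.65 at day 5 (edgeR adjusted p = 0.0342) and -0.72 ± 0.70 at day 14 (edgeR adjusted p = 0.453). The day 5 call held in 7 of the 13 alternatives that gave a value (adjusted p between 0.0291 and 0.11 from edgeR, DESeq2 or limma). It was lost with no filter on low counts (log2 1.78), with DESeq2 (1.85) and with limma-voom (1.66). It was also lost without AG120 replicate 3 (1.93) or vehicle replicate 1 (1.76) or 2 (1.603). At day 14, leaving out vehicle replicate 1 turned the sign (log2 0.63).

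Gsr (ENSMUSG00000031584, chromosome 8, 33652523 to 33698163, plus strand), which recycles glutathione, did not follow the synthesis genes. It had 31.4, 50.6 and 38.5 CPM in AG120 day 5, against 33.3, 51.5 and 50.9 CPM in vehicle day 5, and the ranges overlapped. At day 14 it had 31.3 and 36.2 CPM in AG120 and 48.8 and 53.8 CPM in vehicle, without overlap. On the log2 scale the difference was -0.18 ± 0.49 at day 5 (edgeR adjusted p = 0.804) and -0.60 ± 0.61 at day 14 (edgeR adjusted p = 0.489). With the 4 day 14 libraries fitted alone, edgeR gave an adjusted p = 0.0035, the lowest of a range that reached 0.702 over 14 alternatives. The spread of Gsr in the shared fit includes the relapse libraries, whose values lay far apart.

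Nqo1 (ENSMUSG00000003849, chromosome 8, 107388225 to 107403206, minus strand), a quinone reductase widely used as a marker of NRF2 activity, had 8.38, 9.24 and 8.46 CPM in AG120 day 5, against 2.56, 3.32 and 3.30 CPM in vehicle day 5. By day 14 the levels were 5.67 and 6.40 CPM in AG120 and 3.96 and 2.63 CPM in vehicle. AG120 was above vehicle without overlap at both times, by a narrower gap at day 14. AG120 minus vehicle was on the log2 scale 1.49 ± 0.27 at day 5 (edgeR adjusted p = 0.00033), held in all 16 alternatives, and 0.88 ± 0.35 at day 14 (edgeR adjusted p = 0.0625). At day 14 limma-voom (adjusted p = 0.0473) and the fit of those 4 libraries alone (edgeR adjusted p = 0.045) gave a call, in a range up to 0.325. Relapse lay lowest in the order of means (2.57 CPM) and overlapped both vehicle groups.

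Txnrd1 (ENSMUSG00000020250, chromosome 10, 82833951 to 82897712, plus strand), the cytosolic thioredoxin reductase, is another textbook NRF2 target and was level under treatment. It had 69.8, 66.2 and 61.5 CPM in AG120 day 5, against 70.3, 66.3 and 62.8 CPM in vehicle day 5. After 14 days the levels were 84.8 and 74.3 CPM in AG120 and 82.2 and 66.1 CPM in vehicle. The ranges overlapped at both times, and the log2 difference was -0.01 ± 0.13 at day 5 (edgeR adjusted p = 0.946) and 0.10 ± 0.16 at day 14 (edgeR adjusted p = 0.671). Over the alternatives the difference stayed between -0.11 and 0.03 at day 5 and between -0.05 and 0.26 at day 14. Txnrd1 holds the same core motif in a start window as Gclm does.

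Hmox1 (ENSMUSG00000005413, chromosome 8, 75093621 to 75100589, plus strand), the haem-degrading enzyme that BACH1 represses, had 1 to 19 counts per library. It had 0.30, 0.50 and 0.48 CPM in AG120 day 5, against 1.00, 0.44 and 0.88 CPM in vehicle day 5, with overlap. The day 14 levels were 2.69 and 3.803 CPM in AG120 and 1.32 and 0.55 CPM in vehicle, without overlap. The log2 difference was -0.81 ± 0.81 at day 5 (edgeR adjusted p = 0.451) and 1.80 ± 0.77 at day 14 (edgeR adjusted p = 0.081). A call at day 14 came with the replicate block (edgeR adjusted p = 0.0493) and with those 4 libraries alone (0.0079), in a range up to 0.354 over 13 alternatives. Macrophages are rich in Hmox1, and the summed level of 17 macrophage markers, Hmox1 among them, was 59.1 to 85.9 CPM in AG120 day 14, against 29.7 to 36.2 CPM in vehicle day 14. Of the 8 of these markers tested, C1qa, Vcam1, Cd163 and Slc40a1 rose and Cd68 fell. Adgre1 and Lyve1 were at 0 in both AG120 day 14 libraries, and Timd4, Mertk and Lyve1 in both vehicle day 14 libraries. Slc40a1, an iron exporter that red cell precursors also use, had 21.0 to 26.3 CPM of that sum in AG120 day 14, and Vcam1 3.88 to 18.6 CPM. The part of the macrophage markers in the Hmox1 values was not tested.

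Prdx2 (ENSMUSG00000005161, chromosome 8, 84969587 to 84974834, plus strand), a thiol peroxidase of the cytosol, had 184, 156 and 177 CPM in AG120 day 5, against 88.0, 88.5 and 92.3 CPM in vehicle day 5. At day 14 it had 242 and 352 CPM in AG120 and 86.4 and 106 CPM in vehicle. All AG120 libraries lay above all vehicle libraries, and both day 14 libraries lay above the 3 of day 5. On the log2 scale the difference was 0.94 ± 0.14 at day 5 (edgeR adjusted p = 5.7e-05), or 1.92-fold, and 1.63 ± 0.17 at day 14 (edgeR adjusted p = 2e-06), or 3.10-fold, and both held in all 16 and all 14 alternatives. Prdx2 shares 173 exonic bases at its 3′ end with Junb on the opposite strand, and whether counting used strand is not given in the sources used here. Junb passed in neither comparison, with log2 0.36 ± 0.62 at day 5 (edgeR adjusted p = 0.681) and -1.06 ± 0.82 at day 14 (edgeR adjusted p = 0.351). These errors are wide, and the part of the shared bases in the Prdx2 counts was not tested.

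Cat (ENSMUSG00000027187, chromosome 2, 103453849 to 103485160, minus strand), the catalase of peroxisomes, had 38.9, 45.5 and 37.9 CPM in AG120 day 5, against 29.5, 29.0 and 36.3 CPM in vehicle day 5. By day 14 the levels were 27.5 and 31.4 CPM in AG120 and 30.9 and 37.3 CPM in vehicle. The day 5 groups did not overlap, with vehicle replicate 3 just below the lowest AG120 library, and the day 14 groups did. AG120 minus vehicle was on the log2 scale 0.37 ± 0.14 at day 5 (edgeR adjusted p = 0.0529) and -0.21 ± 0.18 at day 14 (edgeR adjusted p = 0.407). Day 5 gained a call without vehicle replicate 3 (log2 0.48), with the replicate block, with limma-voom and with the 6 day 5 libraries alone, in a range of adjusted p between 0.0061 and 0.198 over 16 alternatives.

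Red cell genes were higher under AG120 at both times, as were Gclm, Gclc, Gss and Prdx2. The summed level of 28 erythroid markers was 1081 to 1254 CPM in AG120 day 5, against 263 to 315 CPM in vehicle day 5. After 14 days it was 2658 to 2906 CPM in AG120, against 287 to 328 CPM in vehicle. From AG120 day 5 to AG120 day 14, Gclc, Prdx2, Txnrd1 and Hmox1 were higher without overlap. Nqo1 and Cat were lower without overlap, and Gclm, Gss, Gsr and Slc7a11 overlapped. The AG120 times were not compared by a test, and the share of all genes with such ranges was not computed. Between the vehicle groups, which have the same numbers of libraries, 15.2% of genes tested lay above and 16.0% below without overlap. Of the 28 markers, 19 rose and 1 fell at day 5, and 23 rose and 1 fell at day 14. The marker that fell at both times was Nfe2, and no marker of the list was at 0 in any of these groups. The summed granulocyte and monocyte markers were lower, at 513 to 550 CPM in AG120 day 5, against 1337 to 2162 CPM in vehicle day 5. At day 14 that sum was 1471 to 1886 CPM in AG120, against 2127 to 2215 CPM in vehicle. Mpo, 1 of these markers, averaged 254 CPM in AG120 day 5, 130 CPM in AG120 day 14 and 757 CPM in vehicle day 14. Lyz2, another of them, fell by 3.62 ± 0.38 on the log2 scale at day 5. Its day 14 effect minus its day 5 effect was 2.98 ± 0.55 (edgeR adjusted p = 0.0269). It alone of this list passed for that change, where 0.208% of all genes tested passed upward. Of the 19 markers of this list tested, 1 rose and 9 fell at day 5, where 20.1% and 19.3% of all genes tested did. None rose and 4 fell at day 14, the latter near the 17.9% of all genes tested. Of 14 lymphocyte markers 2 were tested, Nkg7 and Cd79b, and both fell at both times. So did Pecam1 and Vim, the 2 tested of 10 stromal and endothelial markers. The other markers of both lists had too few counts to be tested. The part of any of these cell types in the levels of the 10 genes was not tested.

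None of the 10 genes passed edgeR's quasi-likelihood test of the day 14 effect minus the day 5 effect, where 0.934% of all genes tested did. DESeq2 and limma-voom also called 0 of the 10, and 4 of them, Slc7a11, Hmox1, Prdx2 and Cat, had an unadjusted p below 0.05, as did 1482 of all 11994 genes tested. Prdx2 came closest, with 0.69 ± 0.22 on the log2 scale (edgeR adjusted p = 0.179, and between 0.0059 and 0.509 over 20 alternatives). Slc7a11 and Hmox1 had the larger differences, -2.53 ± 0.95 (edgeR adjusted p = 0.256) and 2.61 ± 1.12 (edgeR adjusted p = 0.346), on few counts. Nqo1 had -0.61 ± 0.44 (edgeR adjusted p = 0.642) and Gclm -0.09 ± 0.21 (edgeR adjusted p = 0.92). In the vehicle mice alone, none of the 10 genes passed between day 14 and day 5, where 0.00% of genes did with edgeR, 0 by DESeq2 and 0 by limma-voom, although 574 genes, Slc7a11 among them, had an unadjusted p below 0.05. Slc7a11 lay above without overlap at day 14 (15.2% of genes tested) and Gss below (16.0%).

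In relapse, Gclm, Gclc, Gss, Nqo1 and Prdx2 lay within or near the vehicle range and below every AG120 library. Relapse was compared with the mean of both AG120 groups and with the mean of both vehicle groups, so these comparisons share libraries with each other and with those above. The vehicle and AG120 groups are of days 5 and 14 and relapse followed 28 days of AG120, so no group of the same time was available. Against AG120, Gclm, Gclc, Gss, Nqo1, Prdx2 and Cat passed in the downward direction, 6 of 10, where 26.1% of all genes tested did, and none passed upward, where 27.9% did. The median log2 difference of the 10 genes was -0.60, beside 0.01 over all genes tested. Relapse lay below all 5 AG120 libraries for 5 of the genes, where 18.9% of genes tested had such ranges. In the same comparison 20 of 28 erythroid markers were lower and 1 higher (median log2 -3.26), and 9 of 19 granulocyte and monocyte markers were higher and none lower (median 1.55), and their part in the levels of the 10 genes was not tested. Against vehicle none of the 10 passed in edgeR's quasi-likelihood test, where 0.183% of genes tested did in either direction, 0.100% upward and 0.0834% downward. DESeq2 and limma-voom called 0 of the 10 as well, and 1 of them, Txnrd1, had an unadjusted p below 0.05, as did 1389 of all 11994 genes tested, so that 1 of 10 is near the background. No gene of the 10 lay above or below all vehicle libraries in all relapse libraries, where 1.98% of genes tested lay above and 1.97% below.

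Gclm had 23.2, 26.4, 29.9 and 24.3 CPM in relapse, all under the lowest AG120 library at 103 CPM and within or next to the vehicle range of 25.7 to 32.1 CPM. The log2 difference was -2.20 ± 0.12 against AG120 (edgeR adjusted p = 2.1e-10), or 4.59-fold lower, and -0.12 ± 0.11 against vehicle (edgeR adjusted p = 0.725). Gclc had 9.26, 11.9, 10.7 and 9.35 CPM in relapse, with -0.90 ± 0.15 against AG120 (edgeR adjusted p = 7.7e-05) and -0.19 ± 0.15 against vehicle (edgeR adjusted p = 0.646). Both subunits of the ligase were thus below every AG120 library and overlapped vehicle. Gss had 5.29, 6.95, 8.12 and 4.55 CPM in relapse, with -1.10 ± 0.20 against AG120 (edgeR adjusted p = 0.0002) and -0.14 ± 0.20 against vehicle (edgeR adjusted p = 0.838).

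Nqo1 had 1.51, 3.92, 2.20 and 2.64 CPM in relapse, with -1.49 ± 0.24 against AG120 (edgeR adjusted p = 7.7e-05) and -0.31 ± 0.25 against vehicle (edgeR adjusted p = 0.68). Prdx2 had 70.5, 80.7, 88.7 and 79.6 CPM in relapse, with -1.50 ± 0.12 against AG120 (edgeR adjusted p = 2.1e-08), or 2.83-fold lower, and -0.21 ± 0.12 against vehicle (edgeR adjusted p = 0.498). Neither gene reached the AG120 range in any relapse library. The 5 calls against AG120 in Gclm, Gclc, Gss, Nqo1 and Prdx2 held in all 21 alternatives, with either pair of relapse libraries left out among them. Cat had 22.9, 29.2, 29.0 and 31.0 CPM in relapse and overlapped AG120. Its difference of -0.30 ± 0.12 (edgeR adjusted p = 0.0485) held in 3 of 21 alternatives (adjusted p between 0.0241 and 0.245 from edgeR, DESeq2 or limma) and was lost without any of the libraries it rests on except replicate 1 of AG120 day 14 and replicate 4 of relapse, at log2 -0.33 to -0.22.

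Gsr divided the relapse mice. It had 119, 33.7, 29.99 and 97.7 CPM in relapse replicates 1 to 4, against 31.3 to 50.6 CPM in all AG120 libraries and 33.3 to 53.8 CPM in all vehicle libraries. Replicates 1 and 4 were above every treated and vehicle library, while replicate 2 lay just above the lowest vehicle library and replicate 3 below all AG120 and vehicle libraries. The log2 difference was 0.92 ± 0.41 against AG120 (edgeR adjusted p = 0.0779) and 0.54 ± 0.39 against vehicle (edgeR adjusted p = 0.646). The first gained a call without replicate 2 (log2 1.19) or 3 (1.18) or with DESeq2. With replicates 1 and 4 left out, a choice made on the expression of these libraries, the differences turned to -0.21 against AG120 and -0.60 against vehicle, and with replicates 2 and 3 left out they were 1.59 and 1.19. The granulocyte and monocyte markers summed to 3007, 1858, 820 and 2043 CPM in relapse replicates 1 to 4, and Itgam had 53.5, 13.9, 16.1 and 35.5 CPM, both highest in replicates 1 and 4. The erythroid markers summed to 146, 327, 660 and 155 CPM in those libraries, and the part of either list in Gsr was not tested.

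Txnrd1 had 100, 72.5, 81.2 and 88.5 CPM in relapse, with 0.24 ± 0.11 against AG120 (edgeR adjusted p = 0.0714) and 0.29 ± 0.11 against vehicle (edgeR adjusted p = 0.322). The difference from AG120 gained a call in 6 of 21 alternatives, with adjusted p between 0.00096 and 0.494 over all 21. These were upper quartile scaling (log2 0.27), scaling by counts outside ribosomal RNA (0.32), ribosomal RNA models left out (0.28), the stricter filter (0.28), relapse replicate 2 left out (0.34) and replicates 2 and 3 left out (0.42), while without replicates 1 and 4 it was 0.09. Hmox1 had 0.76, 2.32, 1.51 and 0.12 CPM in relapse and Slc7a11 1.32, 1.07, 1.38 and 1.44 CPM. Neither passed against AG120 (edgeR adjusted p = 0.936 and 0.716) or vehicle (edgeR adjusted p = 0.818 and 0.545), and few counts limit both. Relapse exceeded all 3 vehicle day 5 libraries for Slc7a11 and overlapped the 2 of vehicle day 14.

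The gene of NRF2 itself, Nfe2l2, was higher under AG120, while Bach1 was lower. Nfe2l2 had 49.7, 60.8 and 52.9 CPM in AG120 day 5, against 27.9, 26.9 and 29.5 CPM in vehicle day 5, a log2 difference of 0.95 ± 0.14 (edgeR adjusted p = 6.4e-05). After 14 days the levels were 54.0 and 53.8 CPM in AG120 and 35.3 and 33.0 CPM in vehicle, a difference of 0.66 ± 0.18 (edgeR adjusted p = 0.0083). Keap1, which encodes the NRF2 inhibitor, averaged 73.7 CPM in AG120 day 5 and 72.3 CPM in vehicle day 5, with 0.03 ± 0.12 (edgeR adjusted p = 0.87). Bach1 had 10.2, 9.91 and 6.87 CPM in AG120 day 5, against 19.4, 17.4 and 19.6 CPM in vehicle day 5, a difference of -1.06 ± 0.24 (edgeR adjusted p = 0.0023), and -0.95 ± 0.31 at day 14 (edgeR adjusted p = 0.0257). None of these groups overlapped for Nfe2l2 or Bach1. Nfe2, the red cell relative of NRF2, had log2 differences of -1.33 ± 0.19 at day 5 and -1.20 ± 0.24 at day 14 (edgeR adjusted p = 4.4e-05 and 0.0011). The small MAF gene Mafk passed upward at day 14 alone, with 0.99 ± 0.29 (edgeR adjusted p = 0.0139) against 0.19 ± 0.24 at day 5 (edgeR adjusted p = 0.555), and the difference between times did not pass (edgeR adjusted p = 0.4). Of the 14 control genes tested, 1 rose and 4 fell at day 5, and 2 rose and 3 fell at day 14. Of all genes tested, 20.1% rose and 19.3% fell at day 5 and 16.8% rose and 17.9% fell at day 14, so these counts are not a result about the list. In relapse Nfe2l2 had 39.5, 29.2, 36.7 and 44.9 CPM, -0.52 ± 0.12 against AG120 (edgeR adjusted p = 0.0014), and Bach1 had 14.2, 25.5, 26.0 and 15.6 CPM, 1.1402 ± 0.20 against AG120 (edgeR adjusted p = 0.00018). Across the vehicle libraries Nfe2l2 had 26.9 to 35.3 CPM, below relapse replicates 1, 3 and 4. Bach1 had 17.3 to 19.6 CPM in vehicle, with relapse libraries on both sides. Neither gene passed in relapse against vehicle, where 0.183% of all genes tested did. RNA of these genes says nothing of the amount or activity of their proteins.

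**Figure D4:**
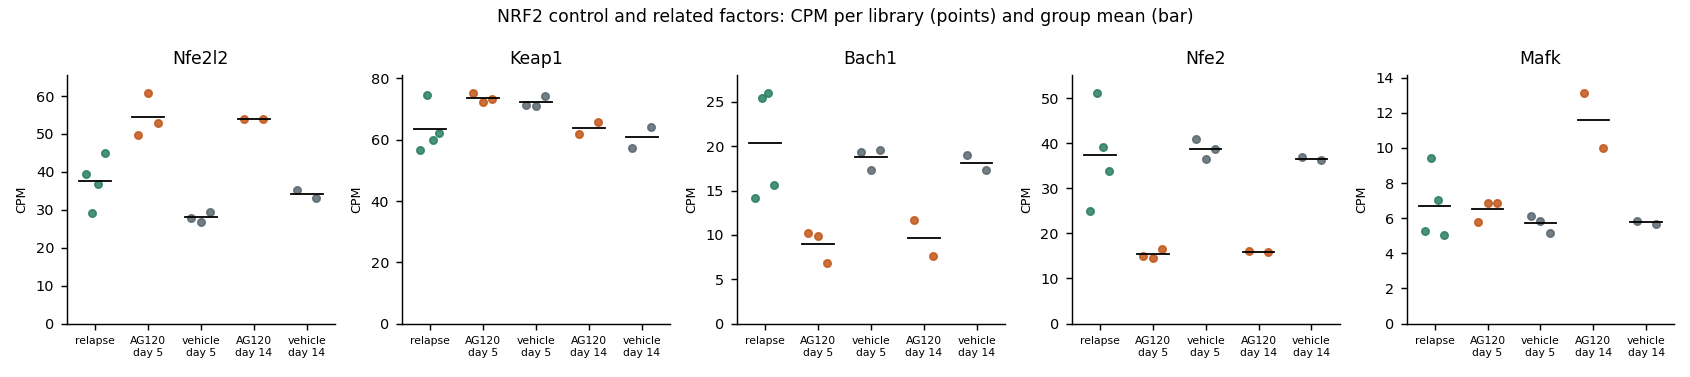
Level in CPM (vertical axes, from 0) of Nfe2l2, Keap1, Bach1, Nfe2 and Mafk in the 14 libraries by group, with points for libraries and bars for group means. Nfe2l2 lies higher and Bach1 and Nfe2 lower in the 5 AG120 libraries than in the 5 vehicle libraries, and Keap1 averages 73.7 and 72.3 CPM at day 5.

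Wider redox lists are given by their counts, to be read against all genes tested, of which 20.1% rose and 19.3% fell at day 5 and 16.8% rose and 17.9% fell at day 14. Of 18 other NRF2 targets tested from a list of 31, 7 rose and 2 fell at day 5 and 8 rose and 1 fell at day 14, with median log2 differences of 0.15 and 0.60. The metallothionein genes Mt2 (6.22 ± 0.71 at day 5) and Mt1 (2.99 ± 0.48) and the biliverdin reductase Blvrb (4.09 ± 0.57), which red cells also use, led the rise, and Abcc1, an exporter of glutathione conjugates, fell by 1.31. Of 20 genes of cysteine supply and glutathione turnover tested, 8 rose and 3 fell at day 5 and 3 rose and 2 fell at day 14 (medians 0.31 and 0.04), and the amino acid carrier Slc7a8 fell by 2.21 and then 3.55. Of 14 glutathione peroxidases and transferases tested, 4 rose and 2 fell at day 5 and 3 rose and 1 fell at day 14 (medians 0.33 and -0.04), among them Gstm5, with 36, 39 and 59 counts in AG120 day 5 against 0, 0 and 2 in vehicle day 5. Gpx4, the lipid peroxide reductase, rose at both times (0.55 ± 0.11 and 0.42 ± 0.13). For the cysteine list and the peroxidase and transferase list, the share that rose at day 14 was near that of all genes. The share that fell at day 5 was near that of all genes as well.

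Of 31 peroxiredoxin, thioredoxin, glutaredoxin and dismutase genes tested, 12 rose and 6 fell at day 5 and 9 rose and 8 fell at day 14, with medians of 0.31 and 0.33, and the share that fell at day 5 was near the 19.3% of all genes. Beside Prdx2, the mitochondrial Prdx3 (1.80 ± 0.20 at day 5) and Prdx4 of the secretory pathway (2.09 ± 0.37) rose, and Prdx5 fell by 1.27. Of 13 genes of NADPH supply tested, 4 rose and 2 fell at day 5 and 3 rose and 3 fell at day 14, with medians of 0.29 and 0.21, and its falls were near the shares of all genes. The folate enzyme Mthfd1 (2.05 ± 0.14 at day 5) and the mitochondrial kinase Nadk2 (1.82 ± 0.14) rose, while Idh2 fell by 0.85 and Idh1, at day 14, by 1.95. Of 10 NADPH oxidase and other oxidant source genes tested, none rose and 5 fell at day 5, with a median of -1.67, and 1 rose and 5 fell at day 14. The phagocyte oxidase subunits Ncf1 and Ncf4 fell by 2.32 and 2.13 at day 5, beside the lower granulocyte and monocyte markers given above. Of 14 ferroptosis and iron genes tested, 7 rose and 3 fell at both times, the falls near the shares of all genes. The rise was led by the iron exporter Slc40a1 (4.47 ± 0.49 at day 5), the reductase Steap3 (3.44 ± 0.33) and the importer Slc11a2 (2.37 ± 0.20), which red cell precursors use.

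Against AG120, relapse had 8 of the 18 other NRF2 targets lower and 2 higher, 13 of the 31 peroxiredoxin and related genes lower and 9 higher, and 6 of the 10 oxidant source genes higher and none lower. Of all genes tested 26.1% were lower and 27.9% higher in that comparison, and the higher share of the peroxiredoxin list was near that background. Mt2 fell by 4.47, Blvrb by 4.49 and Prdx4 by 2.47, and Cybb, the catalytic subunit of the phagocyte oxidase, rose by 3.18 ± 0.70. All values in these sentences are log2 differences past an edgeR adjusted p of 0.05. Against vehicle, no gene of any of these lists passed in relapse, where 0.183% of all genes tested did, so this is not a result about the lists.

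**Figure D5:**
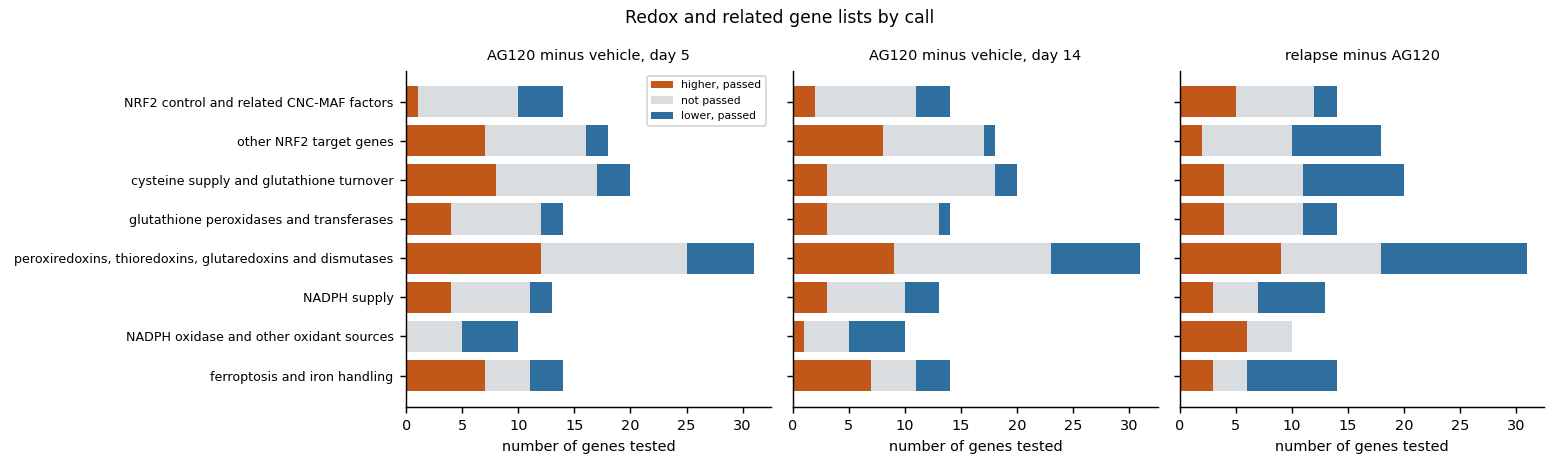
Number of genes tested (horizontal axis) in 8 redox and related lists (vertical axis) that passed upward, did not pass or passed downward in 3 comparisons. The oxidant source list has 5 of 10 genes lower and none higher at day 5, and 6 higher and none lower in relapse against AG120.

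For each of the 10 genes the named gene of the closest pattern was sought among 6260 genes, by Pearson's r of log2 CPM over the 14 libraries, which share the differences between groups. Prdx2 was closest to Prkag1 (r = 0.991) and Gclm to Svbp (r = 0.988). Gclc was closest to Leprot (r = 0.969), Gsr to Pdia6 (r = 0.960), Nqo1 to Ctse (r = 0.952) and Gss to Ddx55 (r = 0.943). The nearest patterns of the other 4 genes were Mdc1 for Hmox1 (r = 0.908), Glod4 for Cat (r = 0.869), Ctsz for Txnrd1 (r = 0.846) and Asf1a for Slc7a11 (r = 0.806). These values describe likeness over these libraries, and no test was made.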

How the data were processed

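Leukemic progenitors of 14 mice were profiled with the QuantSeq 3′ kit. The authors deposited a table of raw counts per gene with 1 column per library, and a column was tied to its library by name. Per the submitters' processing notes the tools were bcl2fastq 2.17.1.14, cutadapt 1.14, HISAT2 2.1.0, featureCounts of Subread 1.6.3, R 3.6.2, limma 3.42.2 and edgeR 3.28.1, with the build mm10. The annotation, the use of strand and the handling of multiply mapped reads were not given in the sources. Symbols were matched by identifier to GENCODE M21 (GRCm38) for 52403 of 52636 rows.

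Here, R 4.3.3 with edgeR 4.0.16, limma 3.58.1 and DESeq2 1.42.0 was used. After filterByExpr (minimum count 10), counts were scaled by TMM (factors 0.672 to 1.33) and fitted by the robust quasi-likelihood method with 1 coefficient per group over 14 libraries, leaving 9 residual degrees of freedom. Ribosomal RNA models stayed in the table. Log2 CPM used a prior count of 2. The script was tested on simulated data. No 2 libraries of a group agreed within sampling noise (chi-square per degree of freedom at least 1.94). Counting error at 20 or fewer counts is large.

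Alternatives were other scalings, filters and tests, a replicate block, fits of the compared groups alone and leaving out each library; leaving out pairs of relapse libraries was added after seeing the data. In groups of 2, leaving out 1 library assumes that the other varies like the remaining groups. The 10 genes and all lists were chosen with earlier results of these data known. The rule for named genes took, from each list and comparison, up to 3 called genes per direction, by size of change, or up to 2 of highest expression where none was called, with Nfe2l2, Keap1, Bach1, Kit and Itgam always and 1 gene of closest pattern per redox gene. Junb, Acss2, Vcam1, Adgre1, Lyve1, Timd4 and Mertk were named outside the rule, all but Junb and Acss2 after their values were seen.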

Additional observations from a re-analysis of the deposited data

Results flagged for a closer look

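Among 70 genes examined, 3 named from the wider lists had 1 relapse library far from the other 3 by Dixon's criterion, which chance meets in about 1 in 20 groups. Mgst1, a membrane glutathione transferase, reached 2.27 CPM in replicate 1, against 0.413 to 0.713 CPM in the others. Prdx4 reached 1.78 CPM in replicate 2, against 0.55 to 0.756 CPM. Hmox2, the constitutive haem oxygenase, reached 19.5 CPM in replicate 1, against 15.3 to 15.6 CPM. None of the 10 redox genes met the criterion in relapse, the sole group of 4 libraries.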

How the results depend on the processing

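Of the results on the 10 genes under the alternatives, 949 kept their direction and side of the threshold, 43 lost the call, 23 gained one and 31 changed sign, none of these with a call in edgeR's main setting. Unless a value or the alternative's construction shows it, the cause was not tested. With no filter on low counts, 3 of the 10 genes passed at day 5, and the genes called were 374 for the day 14 effect minus the day 5 effect, 267 for relapse against vehicle and 33 between vehicle times. Fits of the compared groups alone called 7 of the 10 genes at day 14, Gsr among them as lower, where 4888 of 10518 genes were called, and 2 for the change with time, and 869, 7 and 236 genes for change with time, relapse against vehicle and vehicle times. DESeq2 called 187 genes for the change with time and 120 for relapse against vehicle, and limma-voom 31 for the change with time.

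Leaving out each library gave 2752 (without replicate 2 of vehicle day 14) to 3003 genes at day 14 (4159 with all), 13 to 61 for the change with time (112 with all) and 8 to 117 for relapse against vehicle (22 with all). Without relapse libraries 1 and 4, or 2 and 3, both chosen after seeing the data, 1760 and 1561 genes and 1 and 2 of the 10 genes passed against vehicle. Without libraries 1 and 4, the log2 difference turned for Gss against vehicle (0.15), Gsr against vehicle (-0.60) and AG120 (-0.21) and Hmox1 against AG120 (0.64), and without 2 and 3 for Hmox1 against vehicle (-1.10).

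The other turns of sign were in differences that did not pass. Txnrd1 at day 14 had -0.0003 with scaling by counts outside ribosomal RNA and 0.0 with no filter. Hmox1 in relapse had -0.11 against vehicle with limma-voom, and 0.022 against AG120 with the scaling outside ribosomal RNA. Leaving out 1 library at a time gave log2 differences of -0.057 to 0.032 (day 5), -0.052 to 0.26 (day 14) and -0.039 to 0.27 (change with time) for Txnrd1, -1.42 to 0.63 for Slc7a11 at day 14 and -0.24 to 0.041 for the change of Gclm with time. In relapse they were -0.30 to 0.0047 for Gss against vehicle, and for Hmox1 -0.10 to 0.86 against vehicle and -0.58 to 0.36 against AG120. Between vehicle times they were -0.01 to 0.25 for Gclm, -0.17 to 0.26 for Gclc, -0.22 to 0.36 for Nqo1, -0.006 to 0.30 for Txnrd1, -0.45 to 0.77 for Hmox1, -0.055 to 0.24 for Prdx2 and -0.035 to 0.24 for Cat.

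Whether the replicate numbers pair the mice cannot be told from these libraries. Deviations from the group mean of same-numbered libraries correlated by 0.017 to 0.107 at day 5, and pairs of unlike number by -0.106 to 0.077. Replicate 2 of AG120 day 5 correlated best with replicate 3 of vehicle day 5. At day 14 the deviations of the 2 libraries of a group mirror each other, so the value of 0.069 cannot decide it. With the replicate block, 4677 genes were called at day 5, 4129 at day 14, 108 for the change with time, 16 for relapse against vehicle and 6167 against AG120, and Hmox1 in relapse had 0.32 against AG120. Scaling by counts outside ribosomal RNA moved the median of all genes by -0.10 at day 5, -0.11 at day 14 and 0.10 in relapse against AG120. Depth limits Slc7a11 and Hmox1, at 20 counts or fewer in every library.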
